A study of Mus musculus with 12 samples.

Results

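Slpi, Rarres2, Rnase4, Dmkn, Sbsn, Mfap2, Fxyd3 and Plac8 are 8 genes, out of 54146 in the expression table, that were chosen by their measured values: they were high in dormant tumor cells from Tgfbr2 KO mice and much lower in dormant tumor cells from WT mice and in growing tumor cells, at or near 0 in most of those libraries, although Rarres2 and Slpi were well above 0 in growing cells from KO mice. Most of them encode secreted proteins, and Fxyd3 encodes a membrane protein. The cells were D2A1 cells, a mouse mammary tumor line that forms lung metastases, carrying an inducible nuclear H2B-GFP marker and stained before tail vein injection with CellVue Claret (CVC), a membrane dye that is diluted as cells divide. They were recovered from the lungs of young female mice by sorting, and GFP-positive cells that kept the dye were called dormant while those that had lost it were called growing. Hosts were either WT or Tgfbr2 KO. The study's RNA-seq methods call the first kind WT, while its figure legend calls them flox controls. In Tgfbr2 KO mice the type II TGF-beta receptor gene is deleted by Cre under the Lysozyme 2 promoter. That promoter is active in myeloid cells, so the deletion is in host cells and the injected tumor cells were the same line in all groups. Dormant and growing cells from each host gave 4 groups (dormant WT, growing WT, dormant KO, growing KO) of 3 libraries, 12 in all. All 6 libraries from WT hosts belong to batch 1 by their library names and all KO libraries to batch 2, so host and batch cannot be told apart in a comparison between hosts.

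Some of these proteins act at epithelial surfaces, and others in the matrix, on immune cells or inside the cell. Slpi encodes the secretory leukocyte protease inhibitor, which protects mucosal surfaces from neutrophil elastase and cathepsin G, and Rarres2 encodes prochemerin, which proteolysis turns into a ligand for the chemerin receptor on macrophages, dendritic cells and NK cells. Rnase4 is a secreted ribonuclease of the RNase A superfamily, Dmkn (dermokine) and Sbsn (suprabasin) are secreted by the differentiating layers of stratified epithelia, and Mfap2 (MAGP-1) is a component of the fibrillin microfibrils that bind TGF-beta family ligands. Fxyd3 is a small single-pass regulator of the sodium pump, and Plac8 (onzin) is a cysteine-rich protein that, unlike the others, is mainly cytoplasmic.

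The genes lie on 6 chromosomes, and 3 of them, Sbsn, Dmkn and Fxyd3, lie close together on chromosome 7. Their promoters are shown because these 3 are the only members that share a chromosome. Each sequence, from RefSeq on GRCm38.p6, runs from 250 bases before the transcription start to 50 after it, 5′ to 3′ on the gene's strand. Capitals mark matches to the AP-1 motif TGANTCA in Sbsn and Dmkn and to the TEAD motif CATTCC, here as its reverse complement, in Fxyd3. Dmkn has start sites far enough apart to be shown as an upstream and a downstream window.
Sbsn, chr7:30751221-30751520, plus strand: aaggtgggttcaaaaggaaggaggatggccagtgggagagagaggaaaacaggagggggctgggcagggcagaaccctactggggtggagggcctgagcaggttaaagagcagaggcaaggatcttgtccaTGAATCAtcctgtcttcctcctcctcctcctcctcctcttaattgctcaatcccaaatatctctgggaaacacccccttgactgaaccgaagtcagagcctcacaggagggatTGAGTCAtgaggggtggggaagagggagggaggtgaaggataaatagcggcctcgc
Dmkn upstream, chr7:30763506-30763805, plus strand: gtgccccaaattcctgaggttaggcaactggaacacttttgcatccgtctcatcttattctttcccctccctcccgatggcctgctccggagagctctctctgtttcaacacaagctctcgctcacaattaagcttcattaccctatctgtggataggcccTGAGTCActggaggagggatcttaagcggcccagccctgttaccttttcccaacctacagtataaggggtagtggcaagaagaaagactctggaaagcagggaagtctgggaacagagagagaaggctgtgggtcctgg
Dmkn downstream, chr7:30776155-30776454, plus strand: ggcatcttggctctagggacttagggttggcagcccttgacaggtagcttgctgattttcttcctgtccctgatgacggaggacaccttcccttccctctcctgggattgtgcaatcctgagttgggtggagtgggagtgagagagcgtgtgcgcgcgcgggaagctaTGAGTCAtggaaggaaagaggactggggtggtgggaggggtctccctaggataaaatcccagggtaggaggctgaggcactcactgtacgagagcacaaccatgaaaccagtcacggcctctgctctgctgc
Fxyd3, chr7:31076648-31076947, minus strand: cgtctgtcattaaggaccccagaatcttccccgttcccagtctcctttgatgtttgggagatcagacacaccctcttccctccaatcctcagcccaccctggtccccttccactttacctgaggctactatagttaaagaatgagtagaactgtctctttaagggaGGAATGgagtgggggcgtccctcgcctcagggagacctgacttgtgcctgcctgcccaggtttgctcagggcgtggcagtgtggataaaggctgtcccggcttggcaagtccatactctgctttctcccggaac

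Promoter windows were found for 7 of the 8 genes, with 1 to 3 windows a gene and 12 in all, and shares are given both over the 32851 mouse promoters searched on both strands and over the 27025 genes they belong to. AP-1 matches were present in 4 of the 12 windows against 7.81% of all promoters, and in 2 of the 7 genes, Sbsn and Dmkn, against 8.97% of all genes. Sbsn held 2 matches, the first 119 bases before the start and the second ending at the start itself. In Dmkn, 2 of the 3 windows cover almost the same sequence and hold the same match, so 1 site is counted in 2 of the 4 windows. The match began 89 bases before the upstream start, and another 82 bases before the downstream one. The TEAD motif CATTCC was found in 2 windows (14.7% of all promoters), those of Fxyd3 and Mfap2 (16.6% of all genes). The nuclear receptor core motif AGGTCA was found in 2 windows of Mfap2 (16.3% of promoters, 18.1% of genes). CACCC was present in 8 of the 12 windows against 57.5% of all promoters, and in 6 of the 7 genes, all but Slpi, against 59.8% of all genes. No window of these genes held TATAAA (13.6% of all promoters), the gamma-activated sequence TTCNNNGAA (8.30%) or the SMAD palindrome GTCTAGAC (0.213%). No motif's letters contain those of another, and a match describes letters, not a bound site.

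By the GENCODE M21 annotation of the same build (GRCm38, mm10), all 8 are protein-coding genes whose identifiers, with version, match those in the table. Slpi (ENSMUSG00000017002.14) spans chr2:164354070-164389095 on the minus strand and Rarres2 (ENSMUSG00000009281.6) chr6:48569696-48572789, also minus. Rnase4 (ENSMUSG00000021876.15) lies at chr14:51091077-51106151 on the plus strand. Dmkn (ENSMUSG00000060962.12) lies at chr7:30763756-30781063 and Sbsn (ENSMUSG00000046056.15) at chr7:30751471-30756134, both plus. Mfap2 (ENSMUSG00000060572.17) spans chr4:141010418-141015984 on the plus strand, Fxyd3 (ENSMUSG00000057092.12) chr7:31068172-31076704 on the minus strand, and Plac8 (ENSMUSG00000029322.12) chr5:100553725-100572245 on the minus strand. Rnase4 overlaps Ang on the same strand, and its level is therefore uncertain by whatever share of reads the estimate moved between them. Ang itself was listed at 3.14 to 24.3 TPM in dormant KO.

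Levels are given in TPM, a measure of transcript abundance scaled to gene length and to a fixed total per library, so that they can be compared between genes. The dormant WT libraries had 11325 to 13242 genes above 0 TPM, fewer than dormant KO (14770 to 15315), growing WT (14352 to 14475) or growing KO (13406 to 14063), and read depth cannot be recovered from TPM. Together the 8 genes took up 1.54%, 1.53% and 1.44% of all TPM in the 3 dormant KO libraries. They made up 0.0315% to 0.0549% in growing KO, 0.0014% to 0.00185% in growing WT and at most 0.00882% in dormant WT. The genes were chosen for this difference. Since the values are bulk measurements, fewer cells that express a gene and less of its RNA per cell cannot be told apart.

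Beside these differences, markers of lung cell types also moved. Of 13 marker lists, the summed level in dormant KO lay above that in the other 9 libraries for all but 3 (squamous epidermis, macrophage, and luminal and carcinoma epithelium). Alveolar type 2 markers summed to 40286 to 42594 TPM in dormant KO and at most 472.8 in any other library, and 9 of 11 were above all 9 others. That order was found in 8.74% of the 13002 genes at 1 TPM or more in at least 3 libraries. Sftpc, surfactant protein C, alone was at 36571 to 39284 TPM in dormant KO, against 387 to 423 in growing KO and at most 141 in the libraries from WT hosts. Erythroid markers summed to 50831 to 56264 TPM in dormant KO and 6196 to 13031 elsewhere. Neutrophil markers, mostly S100a8 and S100a9, summed to 4168 to 4453 TPM against at most 921 elsewhere, and endothelial markers to 989 to 1037 against at most 150. Fibroblast markers, mostly Dcn and Inmt, summed to 1889 to 2157 against at most 565. Lum, of the fibroblast list, was lower in dormant KO (0.01 to 12.4 TPM) than in the growing libraries (34.5 to 64.5). Club and ciliated cell markers summed to 2312 to 3002 against at most 1223, alveolar type 1 markers to 1065 to 1229 against at most 87.0, T and NK cell markers to 277 to 396 against at most 27.9, and B cell markers to 162 to 185 against at most 68.5. All dormant KO libraries lay above the other 9 for 4 of 7 erythroid, 6 of 10 neutrophil and 5 of 10 fibroblast markers. This order held for 8 of 11 endothelial, 4 of 10 club and ciliated and 5 of 8 alveolar type 1 markers. It also held for 7 of 11 T and NK cell and 3 of 6 B cell markers, all beside 8.74% of those 13002 genes. The sum of the luminal and carcinoma list, mostly Vim, Krt8 and Krt18, went the other way. It was 644 to 799 TPM in dormant KO and 983 to 1740 in the other 9 libraries. Krt18 overlapped, at 159 to 249 TPM in dormant KO and 131 to 231 in dormant WT. For Krt7 (29.6 to 61.5 TPM against at most 2.18) and Esr1, 2 of the 12 genes, all dormant KO libraries lay above the other 9. Vim, the mesenchymal intermediate filament of these tumor cells, was at 372 to 432 TPM in dormant KO and 639 to 932 in the others. The part of such cells in the levels of the 8 genes was not tested.

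Among the secreted proteins, Rarres2 was by far the highest. Its values in dormant KO were 11586, 11964 and 10779 TPM, a mean of 11443 ± 605 (SD, n = 3), and it was the gene with rank 9 of all in that group. In dormant WT it was listed at 0.13, 75.9 and 0 TPM, in growing WT at 1.52, 3.26 and 2.81, while growing KO had 208, 229 and 408. Every dormant KO library lay above every other library, and the second dormant WT library stood apart from its group. Rarres2 made up 75.05% to 78.0% of the summed level of the 8 genes in dormant KO.

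Slpi followed with 1700, 1272 and 1712 TPM in dormant KO, a mean of 1561 ± 250 (SD, n = 3) and rank 90. It was listed at 0 in all 3 dormant WT libraries, at 9.39, 9.94 and 10.46 TPM among growing cells of WT hosts, and at 39.7, 58.3 and 55.5 in growing KO. The 4 groups did not overlap, and their order was dormant WT, growing WT, growing KO, dormant KO. Slpi was the only member that was above 5 TPM in all 6 growing libraries.

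Rnase4 was the most even of the set in dormant KO, with 315, 314 and 324 TPM, a mean of 318 ± 5.55 (SD, n = 3). Its other values were 0, 12.3 and 0 TPM in dormant WT, 0, 0.08 and 0 in growing WT, then 18.7, 9.67 and 12.8 for growing cells of KO hosts. The second dormant WT library therefore fell within the growing KO range for Rnase4. That library, with Rarres2 and Rnase4, was the only dormant WT library with any member above 1 TPM.

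Dmkn and Sbsn, the neighbouring epidermal genes, were present together. Dmkn was at 400, 335 and 363 TPM in dormant KO (366 ± 32.6, SD, n = 3), at 0 in all 3 dormant WT libraries, at 0, 0 and 2.92 in growing WT and at 11.7, 17.1 and 27.3 in growing KO. Sbsn was lower, at 98.9, 59.96 and 68.8 TPM in dormant KO (75.9 ± 20.4, SD, n = 3), and was listed at 0 in all 6 libraries from WT hosts. In growing KO it reached 2.0, 0.94 and 1.69 TPM. For both genes all growing KO libraries lay above all growing WT libraries.

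Mfap2 was at 454, 512 and 313 TPM in dormant KO (426 ± 103, SD, n = 3) and at 0 in dormant WT. Unlike Dmkn and Sbsn, it was present in growing WT, at 2.75, 4.83 and 2.23 TPM, and its growing KO values of 0, 7.75 and 11.4 overlapped with these. Plac8 was at 524, 514 and 450 TPM in dormant KO (496 ± 39.8, SD, n = 3), at 0 in dormant WT, at 0, 0 and 0.07 in growing WT and at 26.2, 32.5 and 30.2 in growing KO. Fxyd3 was at 303, 369 and 354 TPM in dormant KO (342 ± 34.8, SD, n = 3), at 0 in dormant WT, at 0.33, 0 and 0.05 in growing WT and at 9.27, 0 and 2.27 in growing KO. For Fxyd3 the growing groups overlapped, since 1 growing KO library was at 0.

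**Figure D1:**
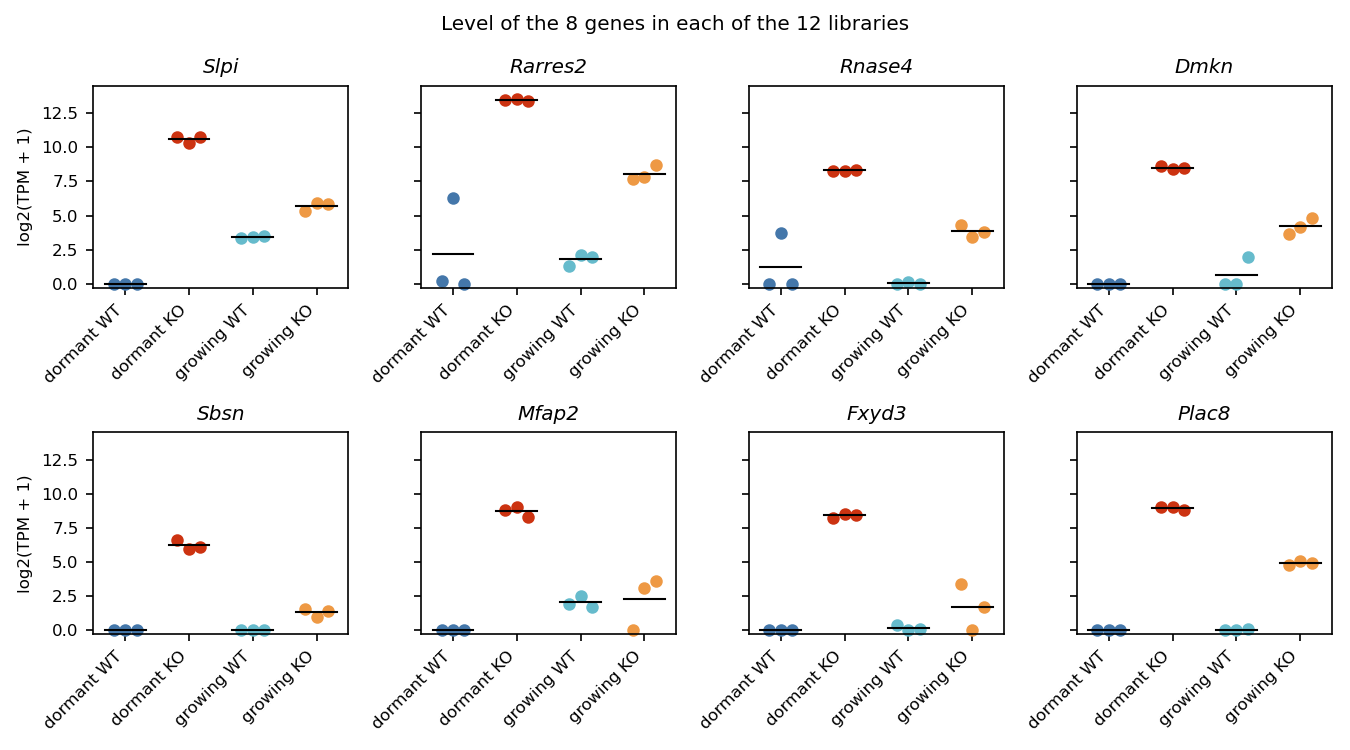
Each panel plots log2(TPM + 1) of a gene in the 12 libraries; points are libraries and black lines the group means on that scale. The 3 dormant KO points lie above all others in every panel, which is how the genes were chosen, and the growing KO points come next for Slpi, Rarres2, Dmkn, Sbsn and Plac8. They overlap with growing WT for Mfap2 and Fxyd3 and with the second dormant WT library for Rnase4.

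The margin behind the choice differed among the genes. The lowest dormant KO library was 32.6-fold above the highest other library for Fxyd3, 30.0-fold for Sbsn, 27.5-fold for Mfap2, 26.4-fold for Rarres2 and 21.8-fold for Slpi. It was 16.8-fold above for Rnase4, 13.9-fold for Plac8 and 12.3-fold for Dmkn. Of 1928 genes with a mean of at least 50 TPM in dormant KO, 126 had a margin of at least 5, 62 of at least 10 and 32 of at least 20; all 8 members were among the 62 and 5 of them among the 32. These numbers describe the choice, as does the count of 8 members with all dormant KO libraries above the other 9, where 8.74% of the 13002 genes tested had that order. All 8 passed the filter on low values (at least 1 TPM in 3 libraries), and 6 would have passed it without the dormant KO libraries, the exceptions being Fxyd3 and Sbsn.

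The order of levels was largely kept between both groups from KO hosts. Over the 8 genes the mean levels in dormant KO and growing KO had a Spearman correlation of 0.881, a description across genes that share the same libraries. Each gene in growing KO stood at 1.13% (Fxyd3) to 5.97% (Plac8) of its mean in dormant KO, with a median of 2.87%. Slpi was at 3.28%, Rarres2 at 2.46%, Rnase4 at 4.32%, Dmkn at 5.11%, Sbsn at 2.03% and Mfap2 at 1.49%. The share was 0.332% for Fxyd3 without growing KO replicate 1 and 0.909% for Mfap2 without growing KO replicate 3. Over the 402 genes of at least 50 TPM in dormant KO whose 3 dormant KO libraries lay above the other 9, the median share was 11.6%, with quartiles of 4.34% and 46.0%. The median share among marker genes of at least 10 TPM in dormant KO ran over the 13 lists from 1.73% for alveolar type 2 cells to 236% for luminal and carcinoma epithelium. It was 2.29% for alveolar type 1 cells, 2.51% for neutrophils, 3.36% for endothelium and 3.99% for mesothelium, 9.24% for macrophages, 10.1% for T and NK cells, 13.7% for erythroid cells, 18.9% for fibroblasts, 19.2% for B cells, 42.1% for club and ciliated cells and 55.8% for the 2 such genes of squamous epidermis.

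Whether host genotype also changed the genes in growing tumor cells is asked by growing KO against growing WT. The choice required low values in both groups, so a lower call had little room where growing WT was near 0. It did not use their difference. It also took genes that are high in the other group from KO hosts, so the shares over all genes below are not from genes chosen alike. Fxyd3 and Sbsn passed the filter on low values only through dormant KO and are given by their values alone. Of the other 6 genes, 4 were called higher (limma on log2(TPM + 1), Benjamini-Hochberg adjusted p at most 0.05 over all 13002 genes tested and a difference of at least 1). Over all genes tested, 0.715% were called higher and 0.261% lower in this comparison. Plac8 differed by 4.90 ± 0.40 (log2 difference ± SE; limma adjusted p = 0.000189), Rarres2 by 6.29 ± 1.26 (adjusted p = 0.0381), Dmkn by 3.56 ± 0.60 (adjusted p = 0.0135) and Slpi by 2.24 ± 0.34 (adjusted p = 0.00739). In 5 of the 6, these 4 genes and Rnase4, all 3 growing KO libraries lay above all 3 growing WT libraries, an order found in 13.3% of all genes tested.

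Rnase4 (3.80 ± 0.86, limma adjusted p = 0.0755) did not pass the test, but was called in the fit of only these 2 groups (0.0103) and with array weights (7.95e-05). Mfap2 (0.20 ± 0.81, limma adjusted p = 1) did not pass it and its groups overlapped. Mfap2 turned lower in growing KO with a pseudocount of 0.1 (-0.62) and without growing KO replicate 2 or 3. Plac8 was called in every alternative fit. Slpi lost its call without growing KO replicate 2 (limma adjusted p = 0.0506). Rarres2 lost its call whenever any growing library was left out, as well as with a pseudocount of 0.1 (limma adjusted p = 0.191), with no filter (0.114) and with a replicate block (0.0589). Dmkn lost its call in the fit of only these 2 groups (0.0545) and without growing WT replicate 1 or 2 or growing KO replicate 2 or 3 (0.0660 to 0.0764). Without growing KO replicate 2 only Plac8 was called.

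**Figure D2:**
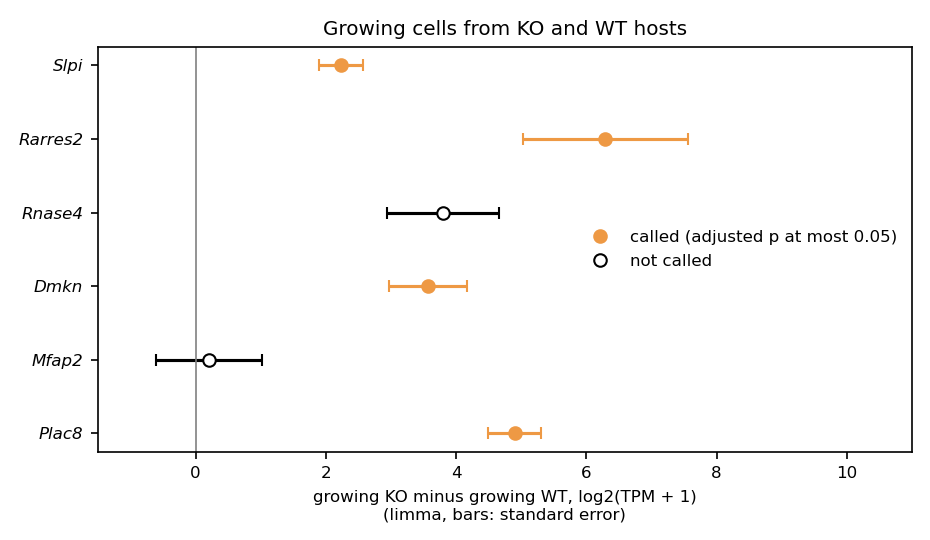
The x axis gives the fitted difference of growing KO minus growing WT in log2(TPM + 1), with the standard error as bars, for the 6 genes that passed the filter without dormant KO; filled points were called. Plac8, Dmkn, Rarres2 and Slpi were called, Rarres2 with the widest bar, and Mfap2 lies next to 0.

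Beside this difference, Sftpc was at 46.0 to 84.6 TPM in growing WT and 387 to 423 in growing KO, and the whole alveolar type 2 list at 56.1 to 97.6 and 465 to 473. The mesothelial list summed to 419 to 520 TPM in growing WT and 783 to 936 in growing KO, mostly Krt8 and Krt18, which the luminal list also holds, and without these keratins to 23.4 to 33.8 and 108 to 191. Club and ciliated markers summed to 1139 to 1223 TPM in growing KO (316 to 346 in growing WT), fibroblast markers to 480 to 565 (133 to 183) and macrophage markers to 59.3 to 81.6 (11.2 to 19.9). Endothelial markers summed to 47.6 to 55.8 TPM (9.82 to 14.2), B cell markers to 40.7 to 68.5 (7.21 to 12.2), T and NK cell markers to 22.3 to 27.9 (0.62 to 10.7) and neutrophil markers to 98.04 to 115 (53.3 to 78.0). Erythroid markers summed to 6881 to 7793 TPM (6196 to 6851) and alveolar type 1 markers to 74.2 to 82.3 (45.3 to 67.4). The luminal and carcinoma list was higher in growing KO as well, at 1514 to 1740 TPM (1317 to 1417). For all these lists the growing groups did not overlap, while for squamous epidermis they did. The part of the cells of these lists, and of the batch that separates these groups, in the differences of the 8 genes was not tested.

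Dormancy in a WT host, where both groups belong to batch 1, is addressed by dormant WT against growing WT. The choice required low values in both groups, which leaves little room for calls, and did not use their difference. Only Slpi was called, lower in dormant WT (limma adjusted p = 0.000133), as it was listed at 0 there and at 9.39 to 10.46 TPM in growing WT. Macrophage markers summed to 476 to 728 TPM in dormant WT against 11.2 to 19.9 in growing WT, and neutrophil markers to 326 to 921 against 53.3 to 78.0. Erythroid markers summed to 8988 to 13031 TPM against 6196 to 6851, and fibroblast markers to 227 to 253 against 133 to 183. The luminal and carcinoma list was lower, at 983 to 1300 TPM against 1317 to 1417. The part of the cells of these lists in the Slpi difference was not tested. Over all genes tested, 5.67% were called lower and 1.85% higher, so that 24.6% of calls were higher, against 50.6% with quantile normalization. Mfap2, at 0 in dormant WT and 2.23 to 4.83 TPM in growing WT, had an unadjusted p of 0.0279 in limma and an adjusted p of 0.150, and was called in the fit of only these 2 groups (adjusted p = 0.0179). Rarres2 was called lower once dormant WT replicate 2, which held its 75.9 TPM, was left out (limma adjusted p = 0.0111). Plac8, Rnase4 and Dmkn, at or near 0 in most libraries of both groups, were not called, and Fxyd3 and Sbsn were at most 0.33 TPM in either. An exact 0 here can be a failed estimate as well as an absent transcript, since the dormant WT libraries also had the fewest genes above 0.

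For dormant KO against dormant WT and dormant KO against growing KO, the contrasts by which the genes were chosen, values are given as a description only. Dormant KO exceeded growing KO 88.9-fold for Fxyd3, 66.9-fold for Mfap2, 49.2-fold for Sbsn, 40.6-fold for Rarres2, 30.5-fold for Slpi, 23.2-fold for Rnase4, 19.6-fold for Dmkn and 16.7-fold for Plac8 in mean TPM. For Fxyd3 it was 301-fold without growing KO replicate 1 and for Mfap2 110-fold without growing KO replicate 3. Against dormant WT no fold is given, since 6 of the 8 were listed at 0 in all 3 of those libraries. Over all genes tested, dormant KO was called higher than dormant WT for 12.9% and lower for 9.39%, and called higher than growing KO for 8.31% and lower for 9.48%. Higher calls made up 57.9% of all calls against dormant WT and 46.7% against growing KO, and 74.0% and 69.2% with median-ratio scaling, while quantile normalization gave 56.9% against growing KO. These contrasts share the dormant KO libraries and are not independent of each other.

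The 8 genes have relatives and partners that the choice did not use, 92 in 7 lists, of which 88 were in the table, 27 were listed at 0 in all 12 libraries and 49 were tested. Between the dormant groups 20 of the 49 were called higher in KO hosts and 2 lower (limma, as above), and 13 higher with array weights, beside 12.9% and 9.39% of all genes tested. Of the 49, 5 passed the filter on low values only through dormant KO, and all 5 (Wfdc1, Eln, Mfap4, Fxyd6 and Ang) are among these 20. They had to differ, so they are given by their values alone and left out of the counts for each list. Dormant KO against growing KO gave 18 higher calls, 4 of them of such genes, and 4 lower ones, beside 8.31% and 9.48% of all genes. Growing KO against growing WT gave 3 higher calls and 0 lower ones by limma, with 12 higher and 1 lower at an unadjusted p under 0.05, beside 0.715% and 0.261% of all genes called. Dormant WT against growing WT gave 5 higher and 3 lower calls, beside 1.85% and 5.67%.

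Slpi belongs to the WAP four-disulfide core family of small protease inhibitors, several of which lie near it on chromosome 2. Dormant KO was called higher than dormant WT for 3 of 5 tested genes of this list, without Wfdc1, by limma and lower for 0, with the same counts at an unadjusted p under 0.05. Wfdc17, an inhibitor made by activated macrophages, was at 3975 to 4684 TPM in dormant KO, 388 to 1163 in dormant WT, 171 to 229 in growing KO and 3.33 to 16.7 in growing WT. The call for dormant KO over dormant WT (2.57 ± 0.50, limma adjusted p = 0.00273) was lost with array weights (0.106). Unlike Slpi, Wfdc17 was also called higher in dormant WT than in growing WT (6.17 ± 0.50, limma adjusted p = 2.61e-05), where macrophage markers summed to 476 to 728 against 11.2 to 19.9 TPM, while in dormant KO they summed to 521 to 674. The part of macrophages in the Wfdc17 values was not tested. Wfdc17 was also called higher in growing KO than in growing WT (4.26 ± 0.50, limma adjusted p = 0.00161). Wfdc21 was at 42.1 to 77.7 TPM in dormant KO, 3.15 to 4.15 in growing KO, 0 in dormant WT and at most 0.87 in growing WT. Wfdc1 was at 14.9 to 39.1 TPM in dormant KO and at 0 in all libraries from WT hosts. Wfdc2, a secreted protein of airway and genital epithelium, was at 84.3 to 152 TPM in dormant KO and 0.27 to 7.32 in dormant WT (5.51 ± 0.67, limma adjusted p = 0.000122), but at 37.5 to 102 in the growing libraries. Among the proteases in the list, Elane and Ctsg were listed at 0 in all 12 libraries. Prtn3 was at 2.66 TPM in 1 dormant KO library and 3.98 in 1 growing KO library and at 0 in the others. Cma1 (chymase) was at 6.59 TPM in the same dormant KO library, 5.2 in the same growing KO library and at most 0.2 elsewhere.

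Of the chemerin receptors, Cmklr1 and Gpr1 were low and Ccrl2 was not. Cmklr1, the signalling receptor, was at 0.07 to 0.58 TPM in dormant KO and at most 0.02 elsewhere, and Gpr1 was listed at 0 throughout. Ccrl2, which binds chemerin without signalling, was at 46.8 to 73.1 TPM in dormant KO and 0 to 43.6 in dormant WT, where 1 library held nearly all of it. It was called higher in dormant KO than dormant WT (4.03 ± 1.31, limma adjusted p = 0.0435) and than growing KO (4.53 ± 1.31, limma adjusted p = 0.0307). The chemerin list also held genes of retinoid handling, because Rarres2 is named for its response to a retinoid. Of its 10 tested genes, dormant KO was called higher than dormant WT for 6 and lower for 1. Aldh1a2, which makes retinoic acid and is also a mesothelial marker, was at 146 to 167 TPM in dormant KO against at most 0.11 in dormant WT (7.22 ± 0.45, limma adjusted p = 1.3e-06). Aldh1a1, another such enzyme, was at 105 to 159 TPM against at most 0.82 (6.82 ± 1.07, limma adjusted p = 0.000714). Crabp2, which carries retinoic acid to the nucleus, went the other way: it was at 0.05 to 3.10 TPM in dormant KO and 261 to 620 in dormant WT (-7.34 ± 0.51, limma adjusted p = 2.32e-06), and at 62.9 to 110 TPM in the growing libraries.

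Among microfibril and elastic fibre genes, the partners of Mfap2, dormant KO was called higher than dormant WT for 3 of 15 tested and lower for 1, without Eln and Mfap4. Efemp1 (fibulin-3) was at 465, 745 and 344 TPM in dormant KO, 0 in all 6 libraries from WT hosts and 9.08 to 17.3 in growing KO, where it was called higher than in growing WT (limma adjusted p = 0.00332). Fbln5, which joins elastin to microfibrils, was at 42.6 to 51.8 TPM in dormant KO and at most 1.0 in dormant WT (5.06 ± 0.57, limma adjusted p = 7.37e-05). Eln, elastin itself, was at 14.6 to 24.0 TPM in dormant KO and at most 0.03 in dormant WT, and reached 1.72 in growing KO. Mfap4, another microfibril-associated protein, was at 17.9, 39.7 and 0.49 TPM in dormant KO, 0 in all libraries from WT hosts and at most 5.03 in growing KO. Fbn1, the fibrillin that MAGP-1 binds, was low throughout (0.95 to 7.25 TPM in dormant KO and at most 0.41 elsewhere), and Mfap5, the close relative of Mfap2, was at 35.2 to 55.3 TPM in dormant KO and 21.5 to 63.8 in dormant WT and was not called. Ltbp1, which anchors latent TGF-beta, was called lower in dormant KO, at 12.1 to 15.9 TPM against 66.6 to 86.2 in dormant WT (-2.41 ± 0.41, limma adjusted p = 0.00114). Dormant WT was the group that stood apart, since Ltbp1 was at 4.85 to 8.49 TPM in growing WT and 5.63 to 7.39 in growing KO. It was called higher in dormant WT than in growing WT (3.25 ± 0.41, limma adjusted p = 0.000692).

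Of the FXYD proteins and sodium pump subunits, dormant KO was called higher than dormant WT for 2 of 8 tested by limma, without Fxyd6, and lower for 0, with 3 higher and 0 lower at an unadjusted p under 0.05. Fxyd1 (phospholemman), a neighbour of Fxyd3, was at 152 to 220 TPM in dormant KO and at most 1.53 in dormant WT (7.03 ± 0.54, limma adjusted p = 4.37e-06). It was called higher in growing KO than in growing WT as well, at 22.3 to 28.3 against at most 0.96 TPM (4.41 ± 0.54, limma adjusted p = 0.002). Fxyd6 was at 11.6 to 23.7 TPM in dormant KO and Atp1b1, the beta1 subunit of the pump, at 23.6 to 78.3, and both were at 0 in dormant WT. Fxyd5 (dysadherin) was abundant in all groups, at 268 to 837 TPM, and was not called.

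In the RNase A superfamily dormant KO was called higher than dormant WT for 1 of 5 tested genes, Ear1, without Ang, and lower for 0 by limma, with 2 higher and 1 lower at an unadjusted p under 0.05. Ang, which overlaps Rnase4, was listed at 0 in dormant WT and reached 16.2, 24.3 and 3.14 TPM in dormant KO, with 4.85 TPM in 1 growing KO library and 0 in the others. Ear1, an eosinophil-associated ribonuclease with near-identical copies that make its level uncertain, was at 42.5 to 108 TPM against 38.9, 0 and 0 (4.50 ± 1.21, limma adjusted p = 0.0176), and lost its call in 7 of 15 alternative fits (adjusted p up to 0.135). Rnh1, the inhibitor of these enzymes, was at 55.5 to 109 TPM in dormant KO and 267 to 339 in growing KO, the lower call of this list in dormant KO against growing KO (-1.78 ± 0.29, limma adjusted p = 0.00118). In the PLAC8 domain family only Cnfn (cornifelin) was tested and it was not called. Krtdap (keratinocyte differentiation-associated protein), the third secreted gene beside Dmkn and Sbsn, was listed at 0 in all 12 libraries.

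Dmkn and Sbsn are known from stratified epithelium, and Slpi and Rarres2 also from mesothelium, the sheet that covers the lung, so the markers of both were set beside the 8 genes. Of 20 squamous epidermis markers, 12 were listed at 0 in all 3 dormant KO libraries, among them Krt1, Ivl, Flg and Krtdap. Their summed level was 35.8 to 77.6 TPM in dormant KO, which overlapped with the 0.71 to 71.4 TPM of dormant WT. Of the 20, 3 had all dormant KO libraries above the other 9, beside 8.74% of all genes tested. These 3 (Krt14, Lor and Sprr1a) were listed at 0 in the other 9. Krt10, at 16.8 to 27.3 TPM in dormant KO, was as high in growing WT (23.8 to 44.9 TPM). Sprr1a was next, at 19.7, 43.4 and 0.07 TPM.

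Of 19 mesothelial markers, 15 had all 3 dormant KO libraries above the other 9, beside 8.74% of all genes tested. Several of these 15, among them Lrrn4, Krt7, Rspo1, Cldn15 and Slc39a8, passed the filter on low values only through dormant KO. The list summed to 2247 to 2986 TPM in dormant KO, 322 to 561 in dormant WT, 419 to 520 in growing WT and 783 to 936 in growing KO. Krt8 and Krt18 together held 219 to 355 TPM of this in dormant KO and nearly all of it in dormant WT (318 to 560) and growing WT (396 to 493). The other 17 markers summed to 2029 to 2631 TPM in dormant KO, 0.59 to 56.2 in dormant WT, 23.4 to 33.8 in growing WT and 108 to 191 in growing KO. Nkain4 was at 583 to 764 TPM in dormant KO, 39.98 to 74.5 in growing KO and 0 in all 6 libraries from WT hosts, and 8 markers of the list had such zeros. Krt19 was at 252 to 418 TPM in dormant KO and at most 14.2 elsewhere, Msln (mesothelin) at 227 to 327 against at most 55.6, and Upk3b at 84.5 to 135 against at most 14.9. Calb2 (calretinin), a defining marker, was listed at 0 in all 12 libraries. Krt8, Krt18 and Wnt4 did not have this order. The part of mesothelial RNA in the levels of the 8 genes was not tested.

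**Figure D3:**
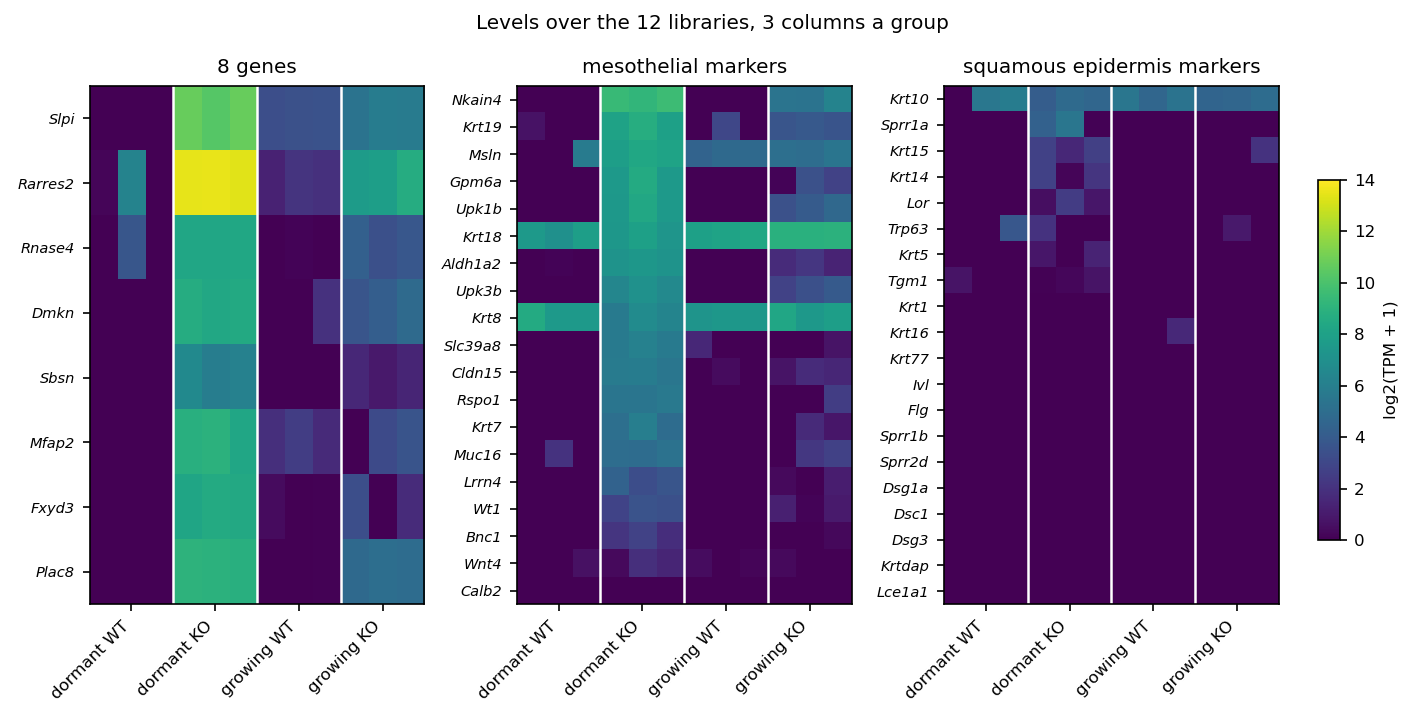
Colour gives log2(TPM + 1) in the 12 libraries, 3 columns a group, for the 8 genes, the 19 mesothelial markers and the 20 squamous epidermis markers, the markers ordered by mean in dormant KO. Most mesothelial markers, but not Krt8, Krt18, Wnt4 or Calb2, share the bright dormant KO columns of the 8 genes, while 12 squamous markers are at 0 there.

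Sbsn, Dmkn and Fxyd3 bound a stretch of 325 kb on chromosome 7 with 18 protein-coding genes, a window set after the values were seen. Only 5 of the 18 had a mean of at least 10 TPM in dormant KO: Sbsn, Dmkn, Fxyd5, Fxyd1 and Fxyd3. In 6 of the 18 all dormant KO libraries lay above the other 9. Of these, 3 are the members, chosen for that order, and the other 3 are Lsr, Fxyd5 and Fxyd1. Lsr passed the filter on low values only through dormant KO, which leaves 2 of the 4 other tested genes of the stretch, beside 8.74% of all genes tested. Krtdap, which follows Dmkn, and Lgi4, which overlaps Fxyd3 on the opposite strand, were listed at 0 in all libraries, as was Fxyd7. Hamp2, a hepcidin gene, had 55.2, 0 and 107 TPM in dormant WT against 0, 12.2 and 7.57 in dormant KO, so that the groups overlapped.

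**Figure D4:**
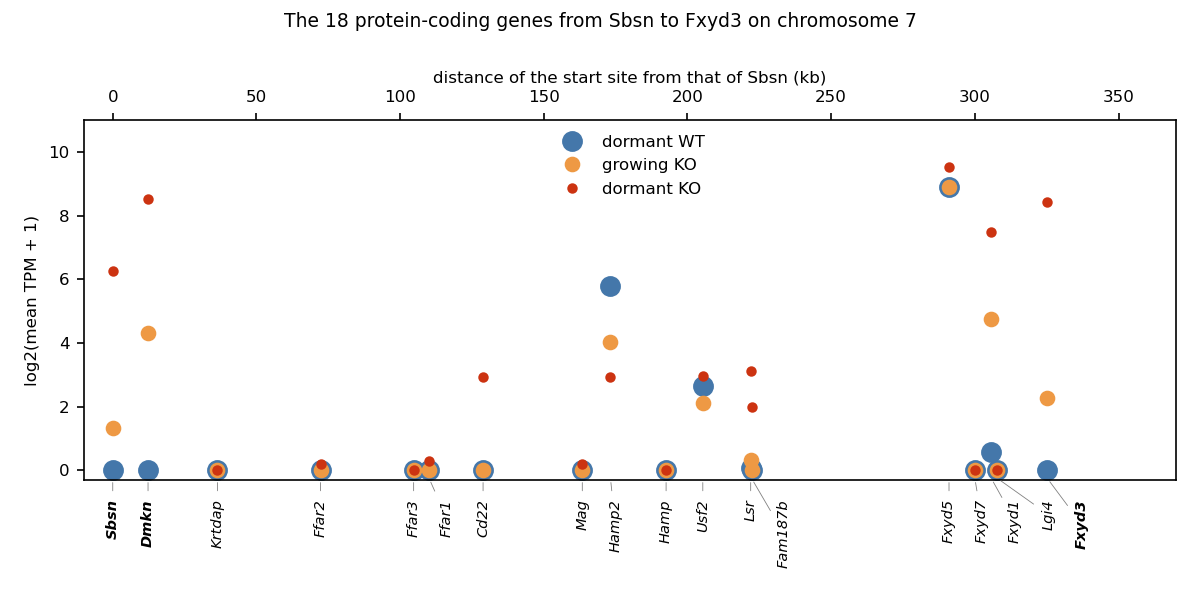
The x axis is the distance of each gene's start from that of Sbsn in kb, and the y axis log2(mean TPM + 1) in dormant WT, growing KO and dormant KO (points of falling size, so that equal values stay visible; members in bold). Dormant KO levels are high at both ends of the stretch and low for most genes between.

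Over all 8 genes, 42 protein-coding neighbours, 3 on each side of a member with members left out, were checked. In dormant KO 22 of them had a mean under 1 TPM, and 18 were tested. Ang and Lrrc61 passed the filter only through dormant KO. Of the remaining 16, 1 was called higher in dormant KO against dormant WT (Fxyd1) and 1 lower, beside 12.9% and 9.39% of all genes tested. The lower one was Sdc4 (syndecan-4), beside Slpi, with means of 207 TPM in dormant KO and 1038 in dormant WT (-2.30 ± 0.17, limma adjusted p = 3.34e-06). Lrrc61, which overlaps Rarres2 on the opposite strand, was at 0.67 to 10.01 TPM in dormant KO.

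The profiles of the 8 genes were close to each other over the 12 libraries, with Pearson correlations of log2(TPM + 1) between pairs of 0.83 to 0.99 (28 pairs, median 0.92), as the choice would give. Without the dormant KO libraries the range over the other 9 was -0.06 to 0.96 with a median of 0.72. Over the 12 libraries the genes whose profile was most like the members' mean were C2, Efemp1, Nbl1, Emcn, Igfbp5, Ripply3, RP23-178N17.2, Wfdc21, Slurp1 and RP23-100C7.3, with correlations of 0.987 to 0.992, and 380 of 12994 genes reached 0.9. Slurp1, a secreted protein of the Ly6 family, was at 666 to 799 TPM in dormant KO, 5.42 to 6.62 in growing KO and at most 0.09 in the libraries from WT hosts. C2, a complement protease, was at 79.8 to 99.2 TPM in dormant KO and 5.83 to 8.37 in growing KO. Igfbp5, which binds insulin-like growth factors, was at 211 to 244 and 3.62 to 15.4 TPM, Nbl1, a secreted BMP antagonist, at 92.8 to 106 and 6.18 to 12.2, and Emcn (endomucin), an endothelial sialomucin, at 59.99 to 92.7 and 2.48 to 5.61.

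Over the 9 libraries that are not dormant KO, the closest were RP23-178N17.2, Rpl17-ps5, RP23-24J10.5, Nbl1, Serping1, RP23-419G21.1, RP23-151M8.1, Igkv12-44, Icam1 and C2, with correlations of 0.967 to 0.986, and 172 of 12904 genes reached 0.9. Only RP23-178N17.2, Nbl1 and C2 stood in both lists of 10. Serping1, the complement C1 inhibitor, was at 67.4 to 85.2 TPM in growing KO and at most 2.13 in growing WT. Igkv12-44, an immunoglobulin kappa segment, was at 66.3 to 87.7 TPM in growing KO and at 0 in dormant KO, so that likeness over these 9 libraries did not carry over to dormant KO for that gene. These correlations are over libraries of 4 groups and mostly reflect the differences between groups.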

How the data were processed

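RNA from sorted D2A1 cells was sequenced in 12 libraries of 4 groups. Per the labels and the study's methods, the authors trimmed reads with Cutadapt (1.18 in the submitters' processing notes), aligned them with STAR 2.5.2b to mm10 and estimated expression with RSEM (1.3.3 in the notes). The deposited values used here are TPM per gene, with 54146 genes and column totals of 1000000 to 1000001, so read depth and its precision cannot be recovered, and whether counting used strand is not given in the sources used here. The labels name a poly(A) mRNA kit and the methods a protocol for small sorted aliquots. A further 30 columns of the table match no sample and were not used. Because TPM is relative to a fixed total, RNA from other cells lowers every other value, and very abundant transcripts such as Sftpc do so in some libraries only.

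The 8 genes and the gene lists were chosen with earlier results of these data known. Genes at 1 TPM or more in at least 3 libraries (13002) were tested with limma 3.58.1 in R 4.3.3 (moderated, with a trend) on log2(TPM + 1), over all 12 libraries with 4 group means and 8 residual degrees of freedom. P-values were adjusted by Benjamini-Hochberg over all genes tested, and a call required an adjusted p of at most 0.05 and a difference of at least 1 on that scale, which understates changes of low genes. The p-values measure the spread between libraries, which the labels do not tie to animals, although the study describes 3 mice per group. No fold is given against a group listed at 0. Besides the 8 genes, those named were, for each family list, up to 3 called higher and 3 lower by size, the adjacent protein-coding genes, the 10 most correlated genes and the 2 highest markers of a list; Ccrl2, Cmklr1, Gpr1, Elane, Ctsg, Prtn3, Cma1, Mfap4, Fbn1, Mfap5, Fxyd5, Rnh1, Cnfn, Krtdap, Msln, Upk3b, Calb2 and the genes of the chromosome 7 stretch were added after their values were seen. The rule also named 1 gene that is not reported here. Gene positions came from GENCODE M21, in which 52480 identifiers matched with version, and promoters from RefSeq. Alternatives were pseudocounts of 0.1 and 5, no filter or a minimum of 5 TPM, leaving out each library, a replicate block, median-ratio scaling, quantile normalization, array weights and a fit restricted to both groups of a comparison. The fit was tested on simulated data.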

Additional observations from a re-analysis of the deposited data

Results flagged for a closer look

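In WT hosts Slpi was lower in dormant than in growing cells, with a difference in mean of -9.93 TPM, and every dormant WT library was below every growing WT library, while in KO hosts every dormant library was above every growing one. Mfap2 had the same opposite directions, with -3.27 TPM in WT hosts. For both genes the direction in KO hosts is fixed by how the genes were chosen. Crabp2, the cellular retinoic acid-binding protein, went the other way, with dormant WT 321 TPM above growing WT in mean and dormant KO below growing KO in every library. Ear1, whose level is uncertain because of near-identical copies, was lower in growing KO than in growing WT, by -1.51 TPM in mean and listed at 0 in growing KO, a difference that was not called (limma adjusted p = 1), and higher in every dormant KO library than in every dormant WT one. The difference between the directions was not tested for any of these 4 genes. Host and batch cannot be told apart in it.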

How the results depend on the processing

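The number of the 8 genes called higher in growing KO than in growing WT was 4, and 1 to 3 when any growing library was left out, with the lowest count without growing KO replicate 2. Over the 6 genes that passed the filter without dormant KO it was also 4, and 4 in the fit of only these groups, 5 with array weights and 3 with a pseudocount of 0.1. Sbsn was called besides in each of these 3 alternatives, but passed the filter only through dormant KO. In dormant WT against growing WT the number of the 8 genes called, all of them lower, was 1, and 2 in the fit of only these groups. It was 1 to 2 over the libraries left out. No fit reversed a call. Over all genes, growing KO against growing WT had 93 higher and 34 lower calls, against 184 and 124 in the fit of only the groups compared, 296 and 220 with array weights, and 59 to 65 and 13 to 24 without a library. Dormant WT against growing WT had 240 higher and 737 lower calls. These became 489 and 478 with quantile normalization, 67 and 243 with array weights, and 115 to 430 and 331 to 1500 without a library, with the upper end in both directions without dormant WT replicate 1. The fit of only these groups gave 137 higher calls and no filter 441 lower ones. Dormant KO against dormant WT had 1677 higher and 1221 lower calls, against 831 and 587 with array weights, and 804 and 560 lower ones with median-ratio scaling and the fit of only the groups. Dormant KO against growing KO had 1233 lower calls, against 663 with median-ratio scaling, 1877 in the fit of only the groups and 2182 with array weights. The family genes called higher in dormant KO than dormant WT numbered 20 and 13 with array weights, a count whose alternatives were chosen after seeing the data. Of the 20, 5 passed the filter on low values only through dormant KO and had to differ. The cause of these changes was not tested. Median-ratio scaling moved the median difference of all genes from 0.17 to 0.50 between the dormant groups and from -0.32 to 0.09 in dormant KO against growing KO. Replicate numbers did not pair the libraries (correlations of deviations between same-numbered libraries of -0.01 to 0.02), and with a replicate block growing KO against growing WT had 19 lower calls and 3 of the 8 genes called. Depth is unknown, so a level near 0 sets no limit.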
